A study of Homo sapiens with 56 samples.

Results

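The HSP70 and HSP110 chaperones were followed through mantle cell lymphoma cells treated with drugs. The 10 genes were taken by symbol from the 21595 named genes of the expression table: HSPA1A, HSPA1B, HSPA1L, HSPA2, HSPA6, HSPA8 and HSPA9 of the HSP70 family, and HSPA4, HSPA4L and HSPH1 of the HSP110 family. HSPA5, the member of the endoplasmic reticulum, was left out by the same rule. HSPA1A and HSPA1B were also read as a sum, because much of their transcripts is identical. All 10 were measured, and all passed the filter on low values, which asked for 1 CPM (counts scaled to a library total of 1000000) in 2 or more of the 56 libraries.

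HSP70 proteins bind exposed hydrophobic stretches of unfolded proteins and release them in a cycle driven by ATP. J-domain proteins bring clients and stimulate ATP hydrolysis, while HSP110 proteins and BAG-domain proteins exchange the nucleotide so that the client is let go. In unstressed cells most of the work falls to the constitutive cytosolic HSPA8 and, in mitochondria, to HSPA9. HSPA1A, HSPA1B and HSPA6 are the stress-inducible members, transcribed when heat shock factor HSF1 is released as damaged proteins accumulate, for example after proteasome inhibition.

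Poly-A RNA-seq libraries came from JEKO-1 and MINO-P (15 each) and from Z138 and MINO-VR (13 each), all labelled as mantle cell lymphoma lines, a B-cell lymphoma with high cyclin D1. P and VR are not explained. Cells were untreated (CON, 5 libraries) or received CLF (6), BTZ (6), IBR (11), YM155 (4), S63845 (6), BTZ_CLF (4), IBR_CLF (8), BTZ_YM155 (2), IBR_YM155 (2), BTZ_S63845 (1) or IBR_S63845 (1). YM155 was developed to suppress BIRC5 (survivin), and S63845 inhibits the MCL-1 protein. The design text speaks of a proteasome inhibitor (PI) and a BTK inhibitor (BTKi). BTZ and IBR are the usual codes for bortezomib and ibrutinib, drugs of these classes, and CLF is given as a code only. The labels give no dose and no time for any treatment, and nothing says that libraries of a group came from separate cultures, so p-values measure the spread between these libraries, which may be technical. In both MINO cultures the CON, CLF, BTZ and BTZ_CLF libraries carry the prefix HK in their names and all others the prefix MCL, so IBR, YM155 and S63845 cannot be told apart from the library series within MINO. JEKO-1 and Z138 libraries are all of the MCL series.

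Values are CPM as the table gives them, and differences are of log2(CPM + 1), so changes of low genes come out too small. B-cell genes CD79A, CD79B, MS4A1 and PAX5 and the lymphoma genes CCND1 and SOX11 were at 1 CPM or more in all 56 libraries, while the T-cell genes CD3D and CD3E were at 0 in 43 and 41 libraries. The summed markers of other cells ranged from 5.40 to 75.0 CPM in CON and from 9.96 to 47.0 CPM in BTZ, and their part in the results was not tested. In bulk RNA, fewer cells of a type and less RNA per cell cannot be told apart. Depth recovered from the values ran from about 5525000 to 21622000 reads per library, at which 3 reads are worth 0.139 to 0.543 CPM. Mitochondrially encoded genes took 1.91% to 80.5% of a library (median 6.69%), with over 50% in 6 libraries, all of JEKO-1: BTZ replicates 1 and 2, both BTZ_CLF and both IBR_CLF libraries. A high mitochondrial share lowers the CPM of every other gene, so values with these genes left out are given wherever this matters.

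Individual libraries also stood apart. BTZ replicate 3 of JEKO-1 correlated at only 0.740 and 0.742 with replicates 1 and 2 across genes and was nearest to the S63845 library of that line. IBR replicate 1 of Z138 was nearer to the Z138 BTZ library (r = 0.953 over 16483 genes) than to IBR replicate 2 of Z138 (0.935). It is called the library labelled IBR replicate 1 below. Over all lines, the BTZ differences of HSPA6, HSPA1A, HSPA1B, their sum, HSPH1, HSPA4 and HSPA8 are given with and without JEKO-1 replicate 3. The IBR differences of HSPA6, HSPA1B and the sum are given with and without the library labelled IBR replicate 1. Values of partner genes, partner lists and correlations take in both libraries. In 8 groups 2 libraries have names that differ by a final letter a, with correlations from 0.949 in JEKO-1 BTZ_CLF to 0.992 in MINO-VR IBR_CLF. The 2 JEKO-1 BTZ_CLF libraries were each nearer to JEKO-1 BTZ replicate 2 (0.951 and 0.963). In Z138, names end in a capital A for the YM155 library and for replicate 2 of CON, IBR, CLF, S63845 and IBR_CLF. These A libraries deviated from their partners together, so a fit with this set as a block is given where it changes a call. The labels do not say what either letter means.

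The promoters of the members whose levels moved most are shown first, because the heat shock element, the site of HSF1, is built from repeats of the unit NGAAN in alternating orientation. In the table's hg38 coordinates HSPA1A spans chr6:31815543-31817947 and HSPA1B chr6:31827738-31830255, both on the plus strand, and HSPA6 chr1:161524540-161526895 on the plus strand, each as a single exon. HSPA8 spans chr11:123057489-123063231 and HSPH1 chr13:31134973-31162389, both on the minus strand, with 9 and 18 exons in the longest coding transcript. Each window holds the 250 bases before the RefSeq start on GRCh38.p14, written 5′ to 3′ on the gene's strand. Capitals mark matches to GAANNTTC or TTCNNGAA, which are 2 adjoining units and read the same on both strands, and matches to 3 adjoining units overlap these.
HSPA1A, chr6:31815293-31815542, plus strand: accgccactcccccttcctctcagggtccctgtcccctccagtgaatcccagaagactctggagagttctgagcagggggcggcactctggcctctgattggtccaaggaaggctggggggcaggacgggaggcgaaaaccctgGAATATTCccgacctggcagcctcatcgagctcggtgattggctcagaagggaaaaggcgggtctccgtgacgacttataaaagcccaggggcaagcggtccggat
HSPA1B, chr6:31827488-31827737, plus strand: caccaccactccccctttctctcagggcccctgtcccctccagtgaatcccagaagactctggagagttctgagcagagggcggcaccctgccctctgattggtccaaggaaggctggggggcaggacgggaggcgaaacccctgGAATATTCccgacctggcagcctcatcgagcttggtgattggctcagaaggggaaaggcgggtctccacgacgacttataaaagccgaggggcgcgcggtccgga
HSPA6, chr1:161524290-161524539, plus strand: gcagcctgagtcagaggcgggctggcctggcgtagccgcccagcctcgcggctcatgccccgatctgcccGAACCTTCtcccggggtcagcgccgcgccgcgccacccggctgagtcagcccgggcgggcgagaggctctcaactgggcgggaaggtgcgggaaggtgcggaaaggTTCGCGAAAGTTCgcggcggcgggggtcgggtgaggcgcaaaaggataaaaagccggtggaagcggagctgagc
HSPA8, chr11:123062137-123062386, minus strand: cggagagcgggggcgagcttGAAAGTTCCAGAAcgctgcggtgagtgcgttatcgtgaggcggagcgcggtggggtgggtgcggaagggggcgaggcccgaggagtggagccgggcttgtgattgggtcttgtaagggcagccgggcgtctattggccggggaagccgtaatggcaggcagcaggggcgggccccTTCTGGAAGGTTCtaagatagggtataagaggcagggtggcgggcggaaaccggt
HSPH1, chr13:31162389-31162638, minus strand: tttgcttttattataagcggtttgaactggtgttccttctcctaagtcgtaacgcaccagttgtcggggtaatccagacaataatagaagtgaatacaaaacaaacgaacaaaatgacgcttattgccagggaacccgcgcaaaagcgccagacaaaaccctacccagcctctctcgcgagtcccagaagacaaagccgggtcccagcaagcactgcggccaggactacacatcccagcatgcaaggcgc

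The windows of HSPA1A and HSPA1B differed at 14 of 249 aligned bases, an identity of 94.4%, and each held 1 match, starting 106 and 105 bases before the start. HSPA6 held 3 matches, of which 2 join into a run of 3 units (GAANNTTC followed by NNGAA, or TTCNNGAA followed by NNTTC) beginning 74 bases before the start. HSPA8 held 4 matches that join into 2 such runs, beginning 230 and 55 bases before the start. HSPA1L lies head to head with HSPA1A on chromosome 6, and its window shares 241 bases with that of HSPA1A, so its 1 match is the same one on the other strand. Of the 3 RefSeq starts of HSPA4L 1 had a match. HSPH1, HSPA4, HSPA9 and HSPA2 had none in these windows. Over 35116 RefSeq promoters of the same length, 11.6% held the pair of units and 0.441% the run of 3. A match is a description of these letters, and the windows of HSPA2, HSPA8 and HSPA9 start inside the spans that the table gives for these genes. So do 2 of the 3 HSPA4L windows, including the one with the match, chr4:127782072-127782321, in a span of chr4:127781821-127840734.

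In untreated cells the members covered a wide range of levels. Per kilobase of exon, the median over the 5 CON libraries was 217 CPM for HSPA8 (range 89.9 to 501), 80.6 for HSPA9 (71.9 to 92.1), 47.8 for HSPH1 (15.3 to 99.6), 42.7 for HSPA4 (34.8 to 60.5) and 21.2 for HSPA1B (4.69 to 255). HSPA1L, HSPA6, HSPA4L, HSPA1A and HSPA2 followed at 0.501, 0.369, 0.349, 0.330 and 0.0486 CPM per kilobase. The range of HSPA8 overlapped those of HSPA9, HSPH1 and HSPA1B, and the range of HSPH1 those of HSPA9, HSPA4 and HSPA1B. HSPA9 lay above HSPA4 throughout, and the ranges of the 5 low members overlapped. The constitutive HSPA9 was the steadiest of the high members in CON, with 664 ± 69.0 CPM (SD, n = 5), and HSPA1B the most uneven, from 11.8 CPM in MINO-P through 32.8 in MINO-VR, 53.5 and 282 in Z138, to 643 in JEKO-1. Untreated JEKO-1 thus held the highest level of HSPA1B, and also of HSPA6, HSPH1, HSPA8 and HSPA4.

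**Figure D1:**
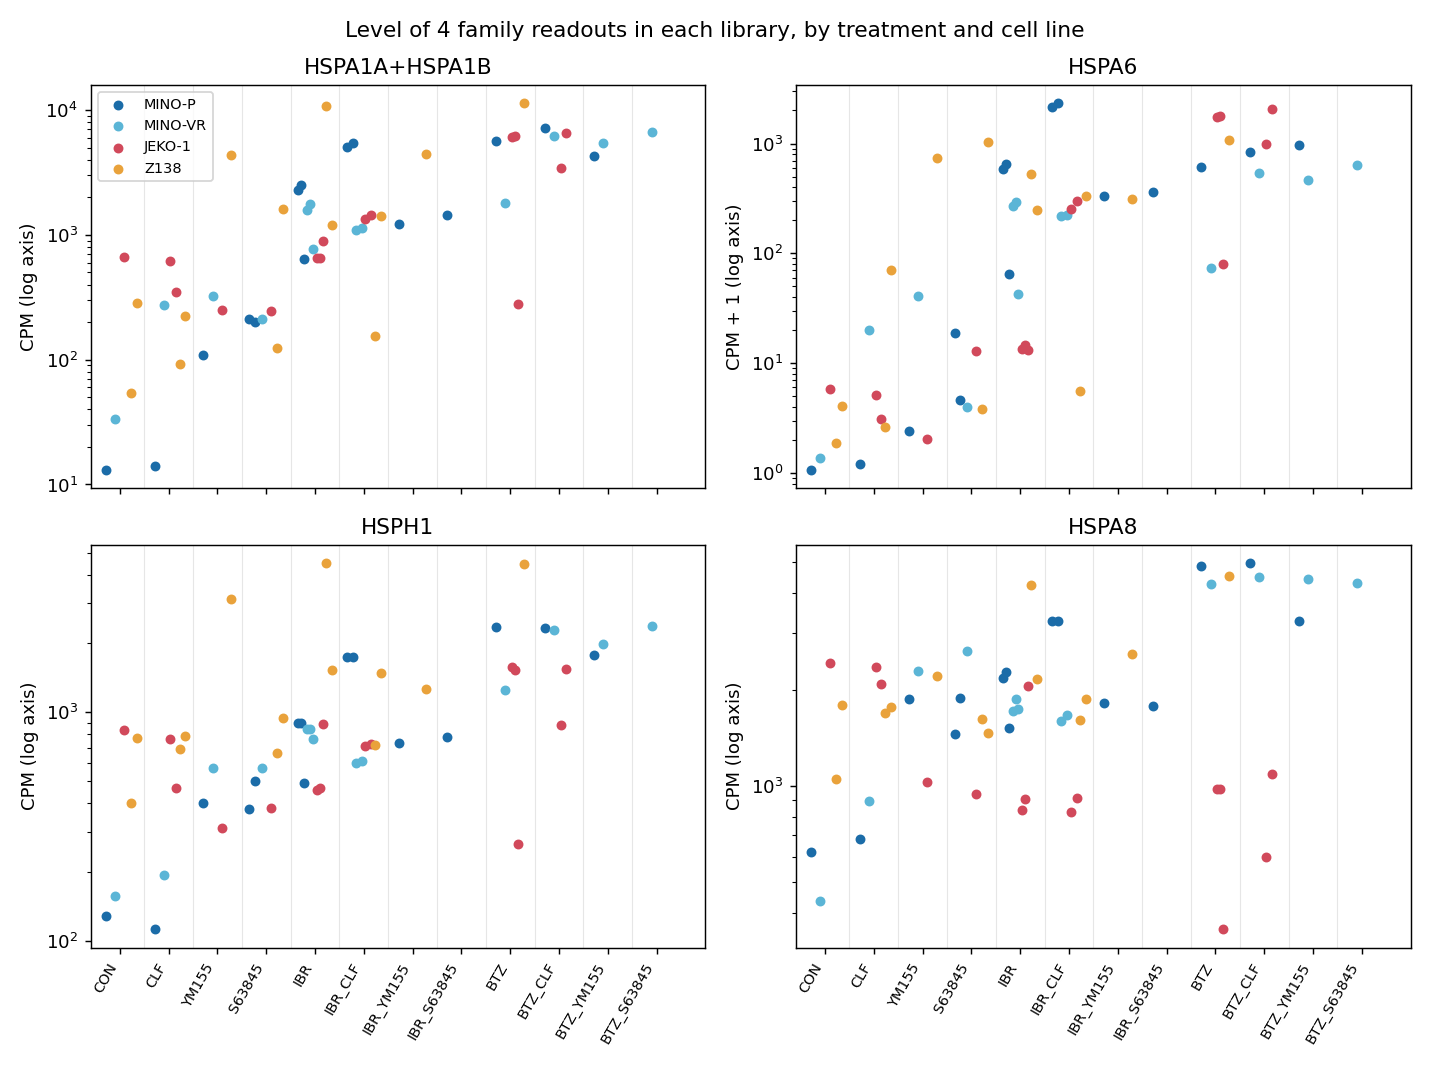
CPM of the HSPA1A and HSPA1B sum, HSPA6 (with 1 added), HSPH1 and HSPA8 on log axes, 1 point per library, by treatment and coloured by cell line. HSPA6 was at most 4.76 CPM in CON and at least 72.3 CPM in every BTZ library, whereas HSPA8 of JEKO-1 lay under its CON value in all BTZ libraries.

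With BTZ the inducible members rose most. HSPA6 rose from 1.84 ± 2.02 CPM (SD, n = 5) in CON to 891 ± 766 CPM (n = 6), and the HSPA1A and HSPA1B sum from 209 ± 276 to 5214 ± 3890 CPM. HSPH1, the inducible HSP110 that exchanges the nucleotide of HSP70, rose from 459 ± 333 to 1908 ± 1420 CPM. HSPA4, the constitutive HSP110, rose by less than 1 on the log2 scale, and the other members did not pass the test.

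The stress-inducible HSPA6, which is nearly silent without stress, stood at 0.0722 CPM in MINO-P CON, which is under the worth of 3 reads, at 0.375 in MINO-VR, 4.76 in JEKO-1 and 0.874 and 3.11 in Z138. With BTZ it was at 616 CPM in MINO-P, 72.3 in MINO-VR, 1747, 1763 and 78.6 in JEKO-1 and 1069 in Z138. The groups did not overlap, which held for 0.23% of all genes in that direction, and the lowest BTZ values were those of MINO-VR and of JEKO-1 replicate 3. The fitted difference was 8.10 (SE 1.27), with a limma adjusted p of 8.79e-06, and 8.56 without JEKO-1 replicate 3. HSPA6 shares 98.6% of aligned bases with HSPA7, but only 15.2% of its 150-base windows are identical there, and HSPA7 did not exceed 17.2 CPM in any library.

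The HSPA1A and HSPA1B sum, the main inducible cytosolic HSP70, was at 13.2 CPM in MINO-P CON, 33.2 in MINO-VR, 662 in JEKO-1 and 53.7 and 283 in Z138. With BTZ it was at 5610 CPM in MINO-P, 1786 in MINO-VR, 6052, 6196 and 282 in JEKO-1 and 11359 in Z138. Of the 6 BTZ libraries 5 lay above all 5 CON libraries, and JEKO-1 replicate 3 lay below JEKO-1 CON. The difference was 5.34 (SE 0.90, limma adjusted p = 2.32e-05), and 6.04 without JEKO-1 replicate 3. Taken apart, HSPA1A differed by 5.91 (SE 1.08, limma adjusted p = 7.12e-05) and HSPA1B by 4.94 (SE 0.92, limma adjusted p = 9.99e-05). Without JEKO-1 replicate 3 they differed by 6.34 and 5.67.

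HSPH1 stood at 128 CPM in MINO-P CON, 157 in MINO-VR, 835 in JEKO-1 and 401 and 772 in Z138. With BTZ it reached 2373 CPM in MINO-P, 1251 in MINO-VR, 1579, 1525 and 264 in JEKO-1 and 4453 in Z138. As for the sum, 5 of 6 BTZ libraries were above every CON library and JEKO-1 replicate 3 was below its own. The difference was 2.34 (SE 0.49, limma adjusted p = 0.000396), and 2.77 without JEKO-1 replicate 3.

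In all, 5 of the 10 members passed at an adjusted p under 0.05 in BTZ against CON, HSPA6, HSPA1A, HSPA1B, HSPH1 and HSPA4, each of them higher. Over the 16498 genes tested, 24.0% were called, 1.75% as higher and 22.3% as lower, and the median difference of all genes was −0.42. The median over the 10 members was 0.92. HSPA6, HSPA1A, HSPA1B and HSPH1 passed in each of the 21 alternatives run, 11 of which left out 1 CON or BTZ library. HSPA4 differed by 0.77 (SE 0.29, limma adjusted p = 0.0495) and lost its call in 13 of the 21, among them the fit with the Z138 A set as a block (0.74, limma adjusted p = 0.0576). Without JEKO-1 BTZ replicate 3 it differed by 0.94 (limma adjusted p = 0.00939). HSPA4 stood at 617 CPM in MINO-P BTZ against 252 in CON, 373 against 180 in MINO-VR, 616 against 220 and 218 in Z138, but 336, 334 and 186 against 312 in JEKO-1.

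**Figure D2:**
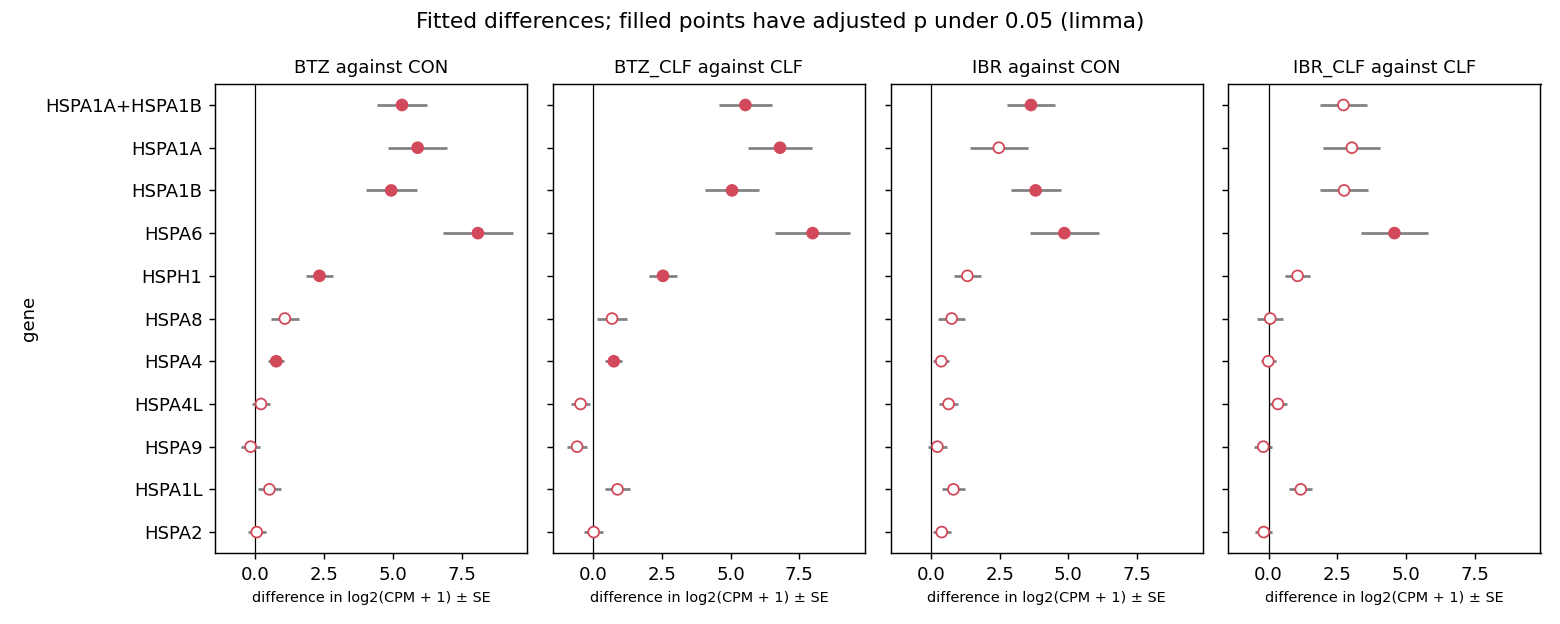
Fitted difference in log2(CPM + 1) with its standard error for each member and the sum in 4 comparisons. Filled points have a limma adjusted p under 0.05. In both BTZ comparisons HSPA6, HSPA1A, HSPA1B, their sum, HSPH1 and HSPA4 are filled. In IBR against CON HSPA1B, HSPA6 and the sum are filled, and in IBR_CLF against CLF only HSPA6.

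The libraries of BTZ_CLF and CLF, which share no library with BTZ and CON, gave a further comparison. HSPA6 was at 842 CPM in MINO-P BTZ_CLF, 542 in MINO-VR and 998 and 2061 in JEKO-1, against 0.206 in MINO-P CLF, 18.8 in MINO-VR, 4.11 and 2.07 in JEKO-1 and 1.62 and 69.4 in Z138. The sum was at 7240, 6257, 3439 and 6552 CPM, against 14.0 to 616 CPM over the 6 CLF libraries (median 247). Neither readout overlapped between the groups, and the share of all genes without overlap between BTZ_CLF and CLF was not counted. Set against the 5 CON libraries, 4 members lay above all of them in every BTZ_CLF library, HSPA1A, HSPA1B, HSPA6 and HSPH1, as did 0.685% of all genes, and with mitochondrial genes left out 7 members did, beside 4.81%. The differences were 7.98 for HSPA6 (SE 1.36, limma adjusted p = 2.41e-05), 5.54 for the sum (SE 0.96, 3.17e-05), 2.54 for HSPH1 (SE 0.52, 0.000228) and 0.76 for HSPA4 (SE 0.31, 0.0487). The same 5 members passed, all higher, beside 40.6% of all genes called, 1.39% as higher. HSPA4 lost its call in 10 of 20 alternatives and HSPA6, HSPA1A, HSPA1B and HSPH1 in none. No member differed at an adjusted p under 0.05 between BTZ_CLF and BTZ, where limma called 0 genes of any kind and no member had an unadjusted p under 0.05. HSPA6 there differed by 1.45 (SE 1.34) and the sum by 1.09 (SE 0.95).

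The constitutive HSPA8, the main cytosolic HSP70 of unstressed cells, went opposite ways between lines on the deposited scale. In MINO-P it was at 4882 CPM with BTZ against 623 in CON, in MINO-VR at 4286 against 436, and in Z138 at 4521 against 1054 and 1791. In JEKO-1 it was at 980, 979 and 356 CPM with BTZ against 2427 in CON. All 3 libraries of the other lines were thus higher than their CON and all 3 JEKO-1 libraries lower. The difference over all lines was 1.08 (SE 0.50), with a limma adjusted p of 0.105. It passed without JEKO-1 BTZ replicate 3, at 1.44 (limma adjusted p = 0.0186), and without the JEKO-1 CON library, at 1.70 (limma adjusted p = 0.0159).

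The mitochondrial share in JEKO-1 was 67.6% and 67.5% in BTZ replicates 1 and 2, 9.92% in replicate 3, where HSPA8 was lowest, and 1.91% in CON. The JEKO-1 libraries of S63845 and YM155, at shares of 17.5% and 6.71%, also held HSPA8 below CON, at 941 and 1031 CPM. With mitochondrial genes left out, HSPA8 in JEKO-1 was at 3021 and 3012 CPM in BTZ replicates 1 and 2 and at 395 in replicate 3, against 2474 in CON, so 2 of 3 libraries lay above CON. In BTZ_CLF it was at 3077 and 3149 CPM on that scale, and at 600 and 1086 CPM as deposited. On that scale HSPA8 passed the test in BTZ against CON, with 1.46 (limma adjusted p = 0.0130), and in BTZ_CLF against CLF, with 1.61 (limma adjusted p = 0.0131). Median-of-ratios size factors gave 1.63 and 1.76 (limma adjusted p = 0.00722 and 0.00841), and leaving out JEKO-1 gave 2.59 and 2.50 (limma adjusted p = 1.6e-05 and 0.000274). Leaving mitochondrial genes out brought the members passing to 6 in BTZ against CON, beside 4.87% of all genes called as higher, and to 7 in BTZ_CLF against CLF, beside 5.55%. Size factors gave 6 and 7 members, beside 8.22% and 7.83%. The median difference of all genes in BTZ against CON moved from −0.42 to −0.17 on that scale.

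HSPA9, the mitochondrial HSP70 that pulls proteins through the inner membrane, did not pass the test. In MINO-P it was at 1149 CPM with BTZ against 665 in CON, in MINO-VR at 1066 against 593 and in Z138 at 735 against 760 and 697. In JEKO-1 it was at 247, 243 and 295 CPM against 603. JEKO-1 was again the only line in which all BTZ libraries lay below CON. The difference was −0.16 (SE 0.34, limma adjusted p = 0.769) as deposited and 0.22 (limma adjusted p = 0.568) with mitochondrial genes left out, where it stood at 761, 747 and 327 CPM in JEKO-1 BTZ and 724 and 724 in JEKO-1 BTZ_CLF against 615 in CON. In BTZ_CLF against CLF the sign turned from −0.58 (limma adjusted p = 0.201) to 0.34 (limma adjusted p = 0.383).

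**Figure D3:**
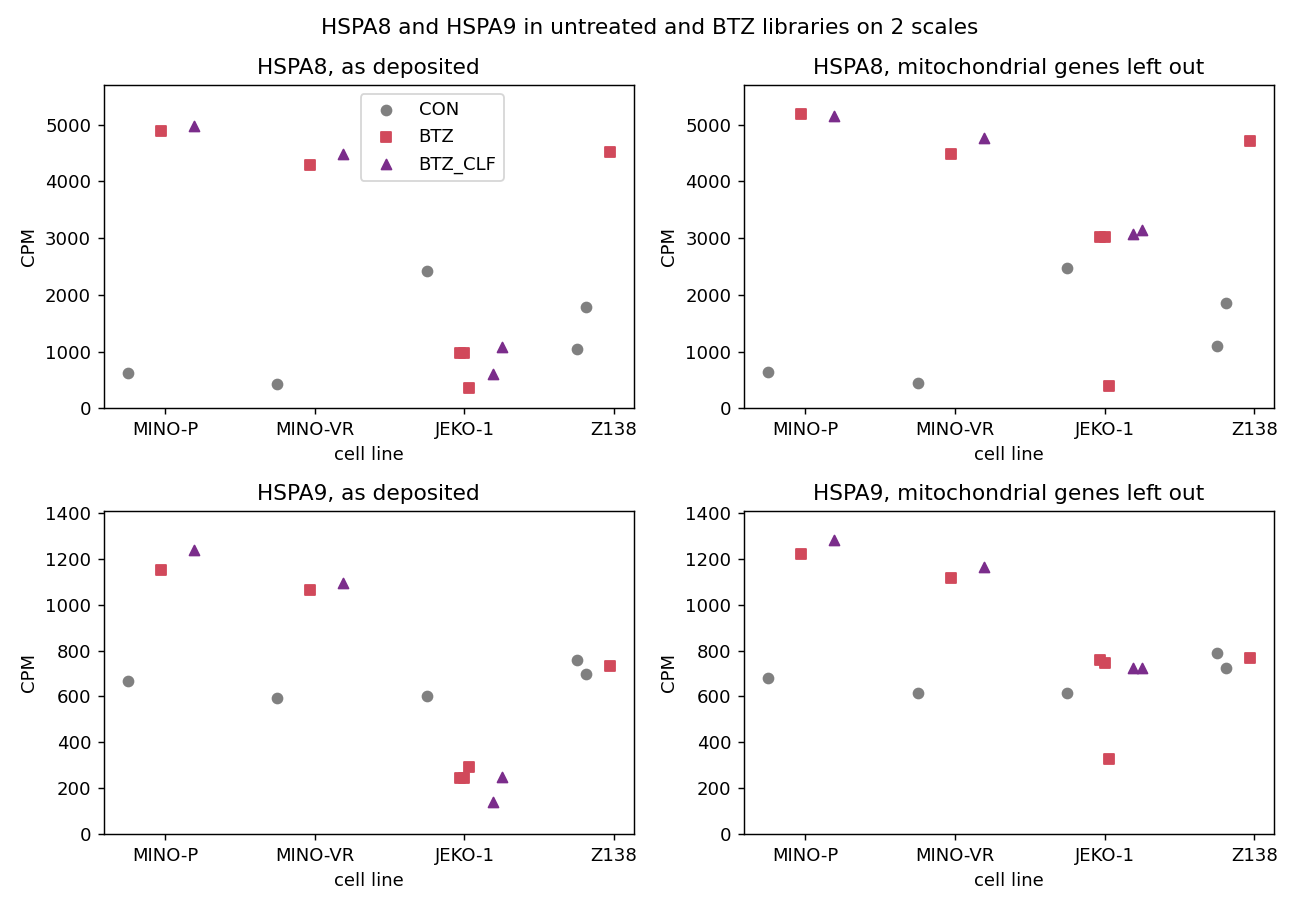
CPM of HSPA8 and HSPA9 in CON, BTZ and BTZ_CLF libraries of each line, 1 point per library, on the deposited scale and without mitochondrial genes. JEKO-1 HSPA8 with BTZ is at 356 to 980 CPM as deposited and at 395 to 3021 CPM on the other scale, with CON at 2427 and 2474 CPM.

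Whether the response to BTZ differed by line was asked in a second model of all 37 groups of line and treatment. No member passed, with limma adjusted p of 0.0968 for HSPA8, 0.223 for HSPH1, 0.254 for HSPA1B and 0.308 for HSPA9, beside 0.0801% of all genes called. At an unadjusted p under 0.05, HSPA8, HSPH1, HSPA1B and HSPA9 were counted, beside 15.1% of all genes. Without JEKO-1 BTZ replicate 3 the number of members passing was 1, beside 3.33% of all genes. Without the 6 libraries of high mitochondrial share it was 3, HSPA8, HSPA1B and HSPH1, beside 18.7%. With the Z138 A set as a block 0.16% of all genes were called and again no member. Within a single line no member passed with BTZ either, beside 0.228% of all genes called in MINO-P, 0.203% in MINO-VR, 19.4% in JEKO-1 and 1.6% in Z138. At an unadjusted p under 0.05, 4 members were counted in MINO-P beside 7.96% of all genes, 4 in MINO-VR beside 4.31%, 4 in JEKO-1 beside 30.9% and 7 in Z138 beside 14.6%. The sum differed by 8.63 (SE 2.08) in MINO-P, 5.71 (SE 2.08) in MINO-VR, 6.51 (SE 1.80) in Z138 and 0.99 (SE 1.80) in JEKO-1, with limma adjusted p from 0.0824 to 0.834. HSPA6 differed by 9.17, 5.74, 8.59 and 6.02 in the same order, with limma adjusted p from 0.145 to 1. In MINO-P and MINO-VR 1 BTZ library was set against 1 CON library, so their SE and p come from the spread within other groups and assume that the lone libraries vary like those. The JEKO-1 differences of 0.99 in the sum and 6.02 in HSPA6 take in BTZ replicate 3. Its sum was 282 CPM, beside 6052 and 6196 in replicates 1 and 2 and 662 in CON. Replicates 1 and 2 counted once, because in this model the 8 pairs named with a final a were averaged. Kept apart, they gave 3 members passing in MINO-P (beside 0.897% of all genes), 1 in MINO-VR (0.364%), 4 in JEKO-1 (28.3%) and 3 in Z138 (4.72%). Without JEKO-1 BTZ replicate 3 the number was 2 in MINO-P (beside 1.36%), 2 in JEKO-1 (38.1%) and 2 in Z138 (8.4%). With the Z138 A set as a block HSPA1B and HSPA6 passed in Z138, at 7.22 and 10.47 (limma adjusted p = 0.0439 and 0.0340), beside 2.1% of all genes.

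HSPA1A and HSPA1B were not assigned alike in the lines. Of the windows of 150 bases, the read length, 67.1% of HSPA1A are found unchanged in HSPA1B and 66.0% of HSPA1B in HSPA1A, with 97.2% identity over 2274 aligned bases, so the split of reads between them is uncertain. HSPA1A took 45.2% to 54.6% of the sum in the 5 JEKO-1 libraries with BTZ, and 0.837% to 16.7% in the 10 JEKO-1 libraries without it. In MINO-P with BTZ, alone or combined, its share was 0.617% to 2.52% (3 libraries), in MINO-VR 4.77% to 7.03% (4 libraries) and in Z138 0.445% (1 library). In CPM, HSPA1A was at 3306, 3254 and 127 in JEKO-1 BTZ and at 1635 and 3397 in JEKO-1 BTZ_CLF, but at 88.2, 50.6 and 40.005 in BTZ of MINO-VR, Z138 and MINO-P. HSPA1B was at 2746, 2942 and 155 CPM in JEKO-1 BTZ against 5570, 1698 and 11309 CPM in the other lines. The high share thus held for JEKO-1 replicate 3 too, whose sum was 282 CPM. Whether reads of 1 gene were placed on the other was not tested.

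**Figure D4:**
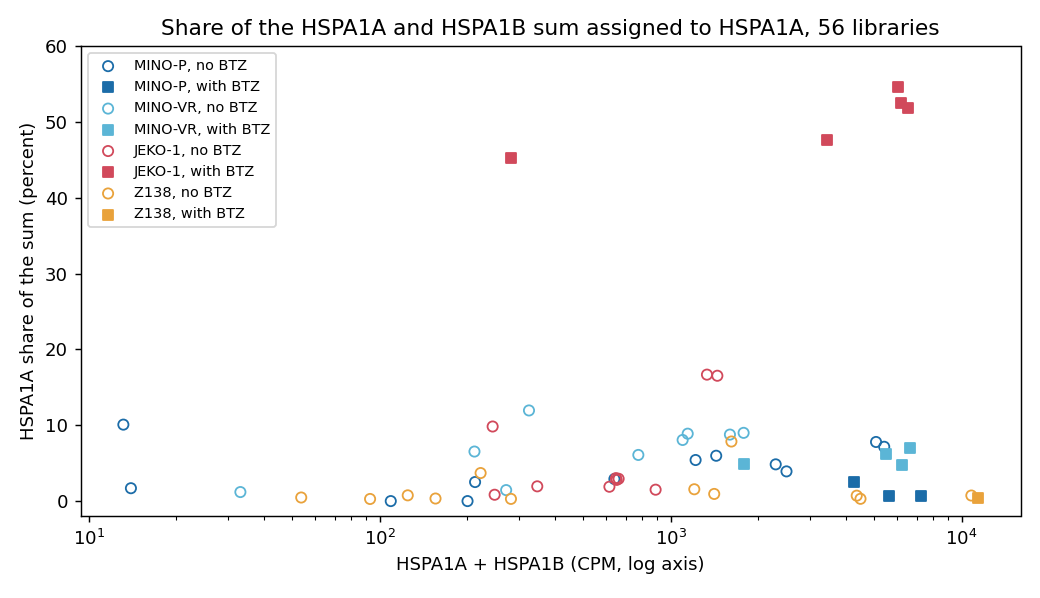
Share of the HSPA1A and HSPA1B sum assigned to HSPA1A (percent) against that sum in CPM (log axis) for all 56 libraries, coloured by line, with filled squares for libraries with BTZ. The 5 JEKO-1 libraries with BTZ lie at 45.2% to 54.6%, and all other libraries at 16.7% or less.

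HSPA6 and HSPA1B passed the test in IBR against CON, both higher. Within MINO the drug cannot be told apart from the library series. HSPA6 ranged from 12.1 to 644 CPM over the 11 IBR libraries (median 248), all above the highest CON value of 4.76 CPM, as held for 0.843% of all genes. By line it was at 589, 644 and 63.6 CPM in MINO-P, 267, 291 and 41.6 in MINO-VR, 12.6, 13.6 and 12.1 in JEKO-1 and 526 and 248 in Z138. The low IBR values were those of JEKO-1, beside 4.76 CPM in its CON. The difference was 4.85 (SE 1.25, limma adjusted p = 0.0125) and 4.58 (limma adjusted p = 0.0256) without the library labelled IBR replicate 1 of Z138. It lost its call without Z138 CON replicate 1, with 4.34 (limma adjusted p = 0.0532).

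The sum ranged from 641 to 10797 CPM with IBR (median 1205, n = 11). In MINO-P it was at 2296, 2500 and 641 CPM, in MINO-VR at 1598, 1781 and 774, in Z138 at 10797 and 1205 and in JEKO-1 at 649, 652 and 888. The JEKO-1 values lay around the CON value of that line, 662 CPM, and 9 of 11 IBR libraries were above every CON library of their own line. The difference was 3.64 (SE 0.88, limma adjusted p = 0.00795), and 3.24 (limma adjusted p = 0.0223) without the library labelled IBR replicate 1. HSPA1B differed by 3.81 (SE 0.91, limma adjusted p = 0.00684), and by 3.42 (limma adjusted p = 0.0189) without that library. HSPA1A missed the threshold at 2.47 (SE 1.06, limma adjusted p = 0.154), as did HSPH1 at 1.33 (SE 0.48, limma adjusted p = 0.0788).

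Thus 2 of 10 members passed in IBR against CON, both higher, beside 6.95% of all genes called, 3.07% as higher. Without JEKO-1 the number was 4, beside 11.7% of all genes called, and without the series term 5, beside 14.8%, with HSPA1A at 4.38 (limma adjusted p = 0.0347) and 3.82 (limma adjusted p = 0.00732). Both other scalings left the number at 2, beside 5.26% of all genes called as higher with size factors and 4.37% without mitochondrial genes. HSPA1B and HSPA6 were above all CON libraries in each IBR library with mitochondrial genes left out, as were 1.18% of all genes. Within the MCL series alone, IBR can be set beside CON only in JEKO-1 and Z138. There HSPA6 was above every CON library of its own line in each IBR library. HSPA1B was at 629, 634 and 874 CPM with IBR against 643 in JEKO-1 CON. In Z138 it was at 10717 CPM in the library labelled IBR replicate 1 and at 1187 in replicate 2, against 53.5 and 282. In these lines HSPH1 was at 459, 466 and 892 CPM with IBR against 835 in JEKO-1 CON, and at 4501 and 1534 against 401 and 772 in Z138. HSPA8 was at 840, 909 and 2057 CPM against 2427 in JEKO-1, and at 4234 and 2159 against 1054 and 1791 in Z138. All of these were below CON in JEKO-1 for HSPA8, and 1 of 3 was above it for HSPH1. No member differed between lines in its response to IBR by limma, with an adjusted p of 1 for each and none at an unadjusted p under 0.05, beside 0.191% of all genes called.

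Combined with CLF, IBR gave higher HSPA6 in 1 further comparison. HSPA6 ranged from 4.63 to 2325 CPM over the 8 IBR_CLF libraries (median 275) against 0.206 to 69.4 CPM in CLF, with MINO-P at 2160 and 2325, JEKO-1 at 255 and 296, MINO-VR at 217 and 223 and Z138 at 4.63 and 330. The groups overlapped through IBR_CLF replicate 1 of Z138, which was nearest to an S63845 library of that line. HSPA6 differed by 4.57 (SE 1.22, limma adjusted p = 0.0212), the only member of 10 to pass, beside 4.93% of all genes called, 0.909% as higher. It lost its call in 8 of 24 alternatives, with adjusted p up to 0.141, among them those without either JEKO-1 CLF library, either JEKO-1 IBR_CLF library or Z138 CLF replicate 1. With mitochondrial genes left out 2 members passed, beside 2.91% called as higher. Size factors gave 2 as well, beside 4.02%. The sum differed by 2.72 (SE 0.86, limma adjusted p = 0.0516) and, with the Z138 A set as a block, by 2.70 (limma adjusted p = 0.0481). Without IBR_CLF replicate 1 of Z138 it differed by 3.41 (limma adjusted p = 0.00588), HSPA6 by 5.75, and 4 members passed beside 10.8% of all genes. IBR_CLF and IBR did not differ in any member by limma, where HSPA6 stood at 1.28 (SE 0.96, adjusted p = 0.677) and 0.0121% of all genes were called, with no member at an unadjusted p under 0.05.

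CLF, YM155 and S63845 alone changed no member at an adjusted p under 0.05. Beside CLF and S63845 limma called 0 of 16498 genes, with no member at an unadjusted p under 0.05, and beside YM155 0.273%, again with no such member. The sum differed by 0.88 with CLF (95% interval −0.86 to 2.62), 1.95 with YM155 (−0.11 to 4.0) and 1.21 with S63845 (−0.67 to 3.10). Single libraries of Z138 were high. With YM155, HSPA6 was at 739 CPM in Z138 against 1.42 in MINO-P, 39.8 in MINO-VR and 1.03 in JEKO-1, and the sum at 4358 CPM in Z138 against 109 to 326 in the others. With S63845, HSPA6 was at 2.78 and 1042 CPM in the 2 Z138 libraries, and from 3.03 to 18.0 CPM in the other lines. Both high libraries are of the A set. HSPA6 was higher in the A library than in its partner in CON (3.11 against 0.874 CPM), CLF (69.4 against 1.62) and IBR_CLF (330 against 4.63) too, and lower in IBR (248 against 526). With the set as a block HSPA6 differed by 1.77 with YM155 and 1.79 with S63845 (limma adjusted p = 0.649 and 1.00). BTZ_YM155, in 1 library of each MINO culture, held HSPA6 at 976 and 465 CPM and the sum at 4261 and 5482 CPM. Against YM155 these differed by 4.74 (SE 1.83) and 3.51 (SE 1.29), with limma adjusted p of 0.332 and 0.297, and no member passed beside 0.339% of all genes, with HSPA1A, HSPA1B, HSPA6 and HSPH1 at an unadjusted p under 0.05. BTZ_YM155 against BTZ also had no member passing, beside 0.921% of all genes, with HSPA9 at an unadjusted p under 0.05. For both comparisons the share of all genes at that unadjusted threshold is not given. The members named at it thus cannot be read as particular to the family. In MINO, BTZ libraries are of the HK series and BTZ_YM155 libraries of the MCL series.

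**Figure D5:**
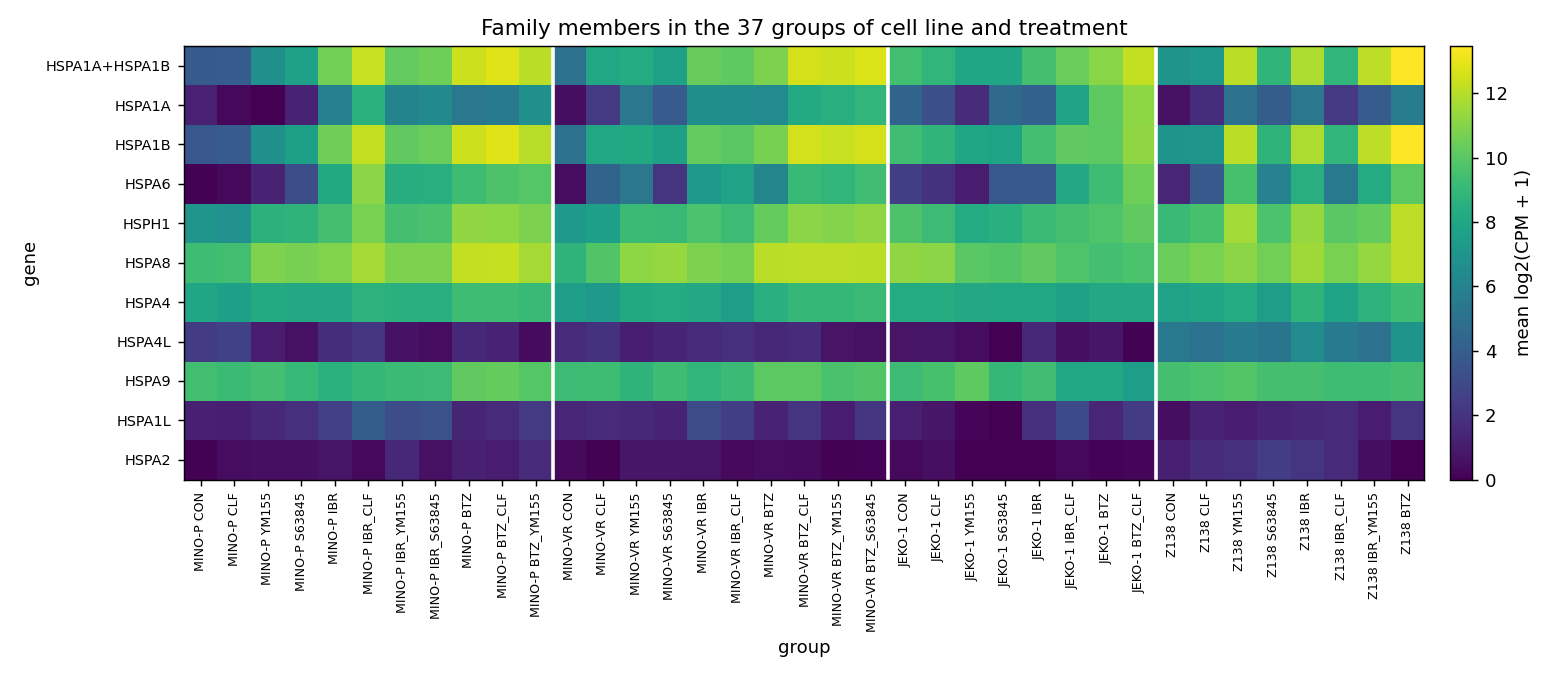
Mean log2(CPM + 1) of the sum and the 10 members in the 37 groups of cell line and treatment, with white lines between cell lines. HSPA4L stands out in Z138, with 31.8 to 139 CPM in its libraries against at most 5.17 CPM elsewhere, and HSPA6 ranges from 0.0722 to 2325 CPM.

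Levels of the members by cell line were compared in an F-test over the 4 lines, with treatment in the model. In it 7 of 10 members passed beside 68.5% of all genes, a share near that background. With pairs averaged 4 passed, beside 62.1%, and with the Z138 A set as a block 6, beside 62.4%, where HSPA9 had a limma adjusted p of 0.107. HSPA4L, an HSP110 best known from testis, was at 31.8 to 139 CPM (median 42.0, n = 13) in Z138, at most 2.24 CPM in JEKO-1, 5.17 in MINO-P and 4.49 in MINO-VR (limma adjusted p = 1.75e-26). Its Z138 values did not overlap with those of any other line, and the share of all genes with such a gap was not counted. HSPA2, another member known from testis, had a median of 2.04 CPM in Z138 and 0 to 0.542 CPM in the other lines (limma adjusted p = 2.01e-06), and it was under 3 recovered reads in 19 of 56 libraries. HSPA1L, named for its likeness to HSPA1A, had medians of 3.90 CPM in MINO-P, 3.05 in MINO-VR, 2.09 in JEKO-1 and 1.40 in Z138 (limma adjusted p = 0.00507). Its highest values, 15.3 and 14.2 CPM, were those of MINO-P IBR_CLF. HSPH1, HSPA8, HSPA1A and HSPA9 passed as well, with limma adjusted p of 0.00093, 0.00981, 0.0221 and 0.0252. HSPA1B, HSPA4 and HSPA6 did not, at 0.447, 0.257 and 0.138. MINO-VR and MINO-P did not differ in any member by limma, nor at an unadjusted p under 0.05, with 0.11 (SE 0.58) for the sum and 1.20 (SE 0.70) for HSPA1A, beside 5.57% of all genes called.

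Partners of HSP70 were read from lists. Of 9 J-domain cochaperones 5 rose and none fell in BTZ against CON, beside 1.75% and 22.3% of all genes, with a list median of 1.14 beside −0.42 for all genes. With mitochondrial genes left out 4 rose, beside 4.87%, and none fell. DNAJB1, the HSP40 that works with inducible HSP70, rose by 3.11 (SE 0.71, limma adjusted p = 0.000993), from 104 ± 71.2 to 851 ± 746 CPM, and DNAJB4 by 2.44 (SE 0.42, 2.97e-05). DNAJA4 rose by 1.22 (SE 0.46, 0.0448) but lost its call in 13 of 21 alternatives. In IBR against CON 5 of the 9 rose, beside 3.07% of all genes, and the list median was 1.06 beside 0.02.

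Among 9 genes of nucleotide exchange and client release 2 rose and 2 fell in BTZ against CON, and the 2 of 9 that fell are near the 22.3% of all genes. With mitochondrial genes left out 4 rose, beside 4.87% of all genes, and 1 fell. The share of all genes called as lower on that scale is not given. BAG3, a nucleotide exchange factor that links HSP70 to autophagy, rose by 3.03 (SE 0.67, limma adjusted p = 0.0007), from 30.1 ± 7.82 to 359 ± 242 CPM. STUB1, the ubiquitin ligase CHIP, fell by 1.44 (SE 0.34, limma adjusted p = 0.00134), and HSPBP1, an exchange factor, by 1.12 (SE 0.38, limma adjusted p = 0.0259). HSPBP1 lost its call in 11 of 21 alternatives and STUB1 in 1. The list median was −0.33. Of 9 mitochondrial partners none rose and 2 fell, again near the share of all genes. These were TRAP1, the mitochondrial HSP90, by 2.55 (SE 0.43, limma adjusted p = 2.21e-05) and TIMM44, which docks HSPA9 at the import channel, by 1.27 (SE 0.36, limma adjusted p = 0.00822). Without mitochondrially encoded genes in the scale 1 of the 9 fell, with TIMM44 at −0.90 (limma adjusted p = 0.0793) and TRAP1 at −2.19 (limma adjusted p = 7.07e-05). As no share of genes called as lower is given there, this count cannot be read as particular to the list.

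Of 10 other heat shock genes 3 rose, beside 1.75% of all genes, and 1 fell, beside 22.3%, with a list median of 0.81. With mitochondrial genes left out 4 rose, beside 4.87% of all genes, and none fell. HSP90AA1, the inducible cytosolic HSP90, rose by 2.24 (SE 0.57, limma adjusted p = 0.00284), the small heat shock protein HSPB1 by 2.10 (SE 0.66, limma adjusted p = 0.0156) and CHORDC1, a cochaperone of HSP90, by 1.81 (SE 0.37, limma adjusted p = 0.000294). HSPB1 lost its call in 2 of 21 alternatives, with limma adjusted p up to 0.137. The 6 other relatives of HSP70, HSPA5, HSPA12A, HSPA12B, HSPA13, HSPA14 and HYOU1, had none passing in BTZ against CON and a median of −0.23.

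The genes most alike in pattern were taken by Pearson correlation over the 37 group means, which share libraries in depth and scale, among 13280 genes. Nearest to the sum were DNAJB1 (r = 0.944), DEDD2 (0.924), BAG3 (0.899), HSPB1 (0.868) and HSP90AA1 (0.867). Nearest to HSPA6 were DNAJB1 (0.933), BAG3 (0.921), ZFAND2A (0.883), DEDD2 (0.882) and HSPB1 (0.858). HSPA8 was nearest to HSP90AA2P (0.857), HSP90AA1 (0.828), TCP1 (0.824), HSP90AB1 (0.814) and BSCL2 (0.805). HSPA9 was nearest to ABCF3 (0.899), CLINT1 (0.895), ABCB8 (0.887), FBXO42 (0.882) and BTBD10 (0.881), and these values were 0.629 to 0.787 with mitochondrial genes left out. Within the family, the sum went with HSPA6 (0.923) and HSPH1 (0.919), less with HSPA4 (0.725) and HSPA8 (0.695), and hardly with HSPA9 (0.0908) or HSPA4L (0.0386).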

How the data were processed

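The deposited table holds log2 values per gene and library. Undone, the values of every library sum to 999984 or more, as CPM do, so they are log2 of CPM plus 1. Per the submitters' processing notes Partek and hg38 were used. The aligner, counter and annotation release are not given in the sources used here. A row without a gene name (at most 0.000773% of a library) was left out, and 0 value columns were unmatched. Library preparation was poly-A TruSeq, per the labels' protocols.

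Depth was recovered from steps in low values. As 76.6% to 89.9% of low values came out whole (within 0.05 read), no count model was used. limma (3.58.1, R 4.3.3; Python 3.11.15 for tables) was fitted with an intensity trend to log2(CPM + 1), pseudocount 1, for genes at 1 CPM in 2 or more libraries, with treatment, line and library series as terms. Calls are Benjamini-Hochberg adjusted p under 0.05 over all genes. A second model fitted 37 group means (22 of 1 library) with 8 library pairs whose names differ by a final a averaged and 11 residual degrees of freedom. Scripts were tested on simulated data. Alternatives were mitochondrial genes left out, size factors, pseudocount 0.1, no filter or 10 libraries, pairs averaged, no series term, no JEKO-1 and each library left out. Chosen after seeing the data were leaving out the 6 libraries over 50% mitochondrial and a block for the Z138 libraries named with a capital A. In 5 Z138 groups that hold both kinds, the A-minus-partner differences correlated across genes at 0.235 to 0.622 (10 correlations), and this pairing comes from the names only.

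Promoters are from RefSeq (GRCh38.p14), with all 10 members matched. Transcript identity is from GENCODE release 29. Members, partner lists and tests were chosen with earlier results of these data known. Partner genes named are up to 3 per list with the largest difference in BTZ against CON among those passing, and the 5 nearest genes were named for the sum, HSPA6, HSPA8 and HSPA9.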

Additional observations from a re-analysis of the deposited data

Results flagged for a closer look

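Some members moved in opposite directions between lines: in the lines named, every library of the treatment was at least 2-fold above or at least 2-fold below every CON library of its line in CPM. Values are differences of mean log2(CPM + 1), treated minus CON of the same line. JEKO-1, MINO-P and MINO-VR hold 1 CON library each. That of JEKO-1 held the highest HSPA1A, HSPA1B, HSPA6, HSPH1 and HSPA8 of all CON libraries. The share of all genes that moved in opposite directions by this rule was not counted. With BTZ the difference between lines was tested, with limma adjusted p of 0.0968 for HSPA8 and 0.563 for HSPA4L. With the other treatments named here it was not tested. HSPA8 with BTZ was at 2.97 in MINO-P, 3.29 in MINO-VR, 1.72 in Z138 and −1.79 in JEKO-1. With BTZ_CLF it was at 3 in MINO-P, 3.36 in MINO-VR and −1.59 in JEKO-1, and with IBR_CLF at 2.40, 1.90 and −1.48. With mitochondrial genes left out, JEKO-1 HSPA8 in BTZ_CLF lay above CON. The JEKO-1 IBR_CLF libraries were 60.7% and 59.1% mitochondrial. With these genes left out, HSPA8 was at 1705 CPM or more in every IBR_CLF library, against 2474 in JEKO-1 CON. The 2-fold limit was thus not met there on that scale. HSPA4L with BTZ was at −0.778 in MINO-P and 1.5 in Z138, and HSPA1A with CLF at −0.911 in MINO-P and 1.82 in MINO-VR. These HSPA1A levels were low, at 1.33 CPM in MINO-P CON and 0.237 with CLF, where 3 reads are worth 0.192 CPM. In MINO-VR they were 0.395 and 3.94 CPM.

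With YM155, the HSPA1A and HSPA1B sum was at 2.96 in MINO-P, 3.26 in MINO-VR, 5.13 in Z138 and −1.41 in JEKO-1. In the same order HSPA1B was at 3.10, 3.09, 5.12 and −1.38, HSPA1A at −1.22, 4.84, 4.41 and −2.73, HSPA6 at 1.17, 4.89, 8.06 and −1.5, and HSPH1 at 1.63, 1.86, 2.48 and −1.42. HSPA8 was at 1.58 in MINO-P, 2.39 in MINO-VR and −1.23 in JEKO-1. Each of these rests on 1 YM155 library per line. HSPA1A in MINO-P was at 1.33 CPM in CON and 2.52e-05 CPM with YM155, and its split from HSPA1B is uncertain. With S63845, the sum was at 3.87 in MINO-P, 2.64 in MINO-VR and −1.43 in JEKO-1, and in that order HSPA1B was at 4, 2.56 and −1.54, HSPH1 at 1.74, 1.85 and −1.13, and HSPA8 at 1.41, 2.59 and −1.37. In both MINO cultures YM155 and S63845 cannot be told apart from the library series.

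Combinations outside the comparisons, 1 library per line, held the sum and HSPA6 above every CON library. In CON the sum was at most 662 CPM and HSPA6 at most 4.76 CPM. The share of all genes above every CON library was not counted for these combinations. IBR_YM155 held the sum at 4491 CPM in Z138 and 1218 in MINO-P, with HSPA6 at 309.7 and 333.9 CPM. IBR_S63845 in MINO-P held them at 1434 and 358.1 CPM, and BTZ_S63845 in MINO-VR at 6634 and 641.4 CPM. HSPA1A and HSPH1 were each above all 5 CON libraries in 1 of the 2 IBR_YM155 libraries. In IBR_S63845 HSPA1A was above them and HSPH1 was not, and in BTZ_S63845 both were.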

How the results depend on the processing

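The replicate block of the Z138 libraries named with a capital A gave 2 members passing in Z138 with BTZ instead of 0, ended the call of HSPA4 in BTZ against CON and of HSPA9 for the cell line term, brought in that of the sum in IBR_CLF against CLF, and changed no other call. Of the values per member and comparison, 2265 of 2299 kept their call or lack of it when 1 library was left out. Under each other setting 133 to 143 of 143 did. A turn of sign between values that did not pass counts as kept, and values for the cell line term have no sign. HSPH1 in IBR_CLF against IBR, for example, turned sign in 12 of 29 alternatives. HSPA9 in BTZ_CLF against CLF turned from −0.58 to 0.771 (limma adjusted p = 0.0495) without JEKO-1. The number of members passing in IBR against CON, 2, became 5 with no series term and 4 without JEKO-1. In IBR_CLF against CLF, 1, it became 2 without mitochondrial genes in the scale, with size factors and with a filter of 10 libraries, 5 with no series term, and 0 with pairs averaged, without JEKO-1 and without the libraries over 50% mitochondrial. For the cell line term, 7, it became 4 with pairs averaged. For BTZ by line, 0, it became 1 with no filter, 1 with pairs kept apart and 3 without the libraries over 50% mitochondrial. For BTZ within a line, 0, pairs kept apart gave 3 in MINO-P, 1 in MINO-VR, 4 in JEKO-1 and 3 in Z138, and leaving out the libraries over 50% mitochondrial gave 2 in MINO-P, 1 in JEKO-1 and 2 in Z138. In JEKO-1, pseudocount 0.1 and the filter of 10 libraries gave 1 each. Leaving out 1 library of the groups compared gave 4 to 6 in BTZ against CON, 4 to 5 in BTZ_CLF against CLF, 1 to 3 in IBR against CON, 0 to 4 in IBR_CLF against CLF, 6 to 7 for the cell line term, 0 to 1 for BTZ by line and 0 to 2 for BTZ in JEKO-1. Where these differ from the numbers first given, the cause was not tested. The share of all genes called also moved between settings, for BTZ by line from 0.0801% to 18.7% without the libraries over 50% mitochondrial. Where no such share is given, a count cannot be read as particular to the members. Over all genes, the share called as higher in BTZ against CON was 1.75% as deposited, 8.22% with size factors and 4.87% without mitochondrial genes in the scale. MINO-P and MINO-VR hold 1 CON and 1 BTZ library each, so none could be left out there. Depth limits HSPA2, HSPA4L and HSPA1L, under 3 recovered reads in 19, 5 and 3 of 56 libraries. HSPA1A and HSPA6 were under 3 reads in 2 and 1.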
